A study of Homo sapiens with 9 samples.

Results

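The genes described are 10 enzymes: those that make serine, those that move a carbon of serine onto folate and within the folate pool, and the pair that turns homocysteine and serine into cysteine. They are PHGDH, PSAT1, PSPH, SHMT1, SHMT2, MTHFD1, MTHFD2, ALDH1L2, CBS and CTH. The rule is a list of symbols and uses no measured value, although the list was drawn up with earlier results of these data known. The row with the highest total was kept where a symbol had several rows. They make up 10 of 25679 gene symbols in the counts, and all 10 passed the filter on low counts, which left 16746 genes to test. The lowest count of any of them was 124 reads, for CTH in replicate 1 of shRNA 2, and none was at 0 in any library.

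MOLM13 is a line of human acute myeloid leukemia cells with a fusion of KMT2A, and YTHDC1 is a nuclear protein that binds RNA methylated at adenosine. The series asked which genes differ after knockdown of YTHDC1. The cells of all 9 libraries were spun with virus in the presence of polybrene, then received 48 h of incubation and 48 h of puromycin at 3 ug/ml. In 3 libraries the virus carried a control short hairpin RNA (shRNA), in 3 it is labelled YTHDC1 shRNA 1 and in 3 YTHDC1 shRNA 2. The labels do not say that libraries of a group came from separate cultures, so each p-value reflects the spread among libraries alone, and that spread may be technical.

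Totals ran from 26455628 to 67558535 counts per library, and 3 counts were worth 0.0444 to 0.113 CPM, the usual unit of counts scaled for library size. All levels below are CPM scaled with edgeR's TMM factors. The precursor of ribosomal RNA, RNA45S5, held 1.12% to 13.1% of the counts. YTHDC1 itself stood at 134, 139 and 122 CPM in the controls and at 117, 103 and 134 CPM in the libraries labelled shRNA 1, a difference that did not pass (log2 fold change -0.16, edgeR adjusted p = 0.938). In the libraries labelled shRNA 2 it stood at 0, 61.4 and 52.5 CPM (log2 fold change -1.79, edgeR adjusted p = 0.326), and the library at 0, replicate 1, lacked reads of many other genes as well. All 3 libraries labelled shRNA 2 lay below every control, and 2 of the 3 labelled shRNA 1 did. The intervals of the log2 fold changes were wide, from -3.46 to 3.14 with shRNA 1 and from -5.10 to 1.52 with shRNA 2. These tests therefore cannot tell a knockdown of YTHDC1 mRNA from none. "With shRNA 1" and "with shRNA 2" name the labels and not a knockdown that passed a test. Of the markers of the cell line, CD33 stood at 49.2, FLT3 at 619, CEBPA at 209 and HOXA9 at 69.3 CPM in the controls, while the T-cell genes CD3D, CD3E and CD3G were at or under 0.0105 CPM and HBB, PF4 and EPCAM at 0. Lists of other cell types were low throughout: the lymphocyte markers summed to 35.5 to 66.7 CPM, nearly all of it NCAM1 and NKG7 (mean log2 fold changes -0.89 and 0.76), the epithelial and stromal ones (PDGFRB 1.65, KRT8 -0.71) to 2.84 to 8.27 CPM and the erythroid and megakaryocyte ones (ITGA2B -1.32) to 0.225 to 0.727 CPM. For the mean of both shRNAs, 1 of 4 tested was lower and 1 higher in the first, 1 of 4 lower and 1 higher in the second and 1 of 2 lower in the third, and of 11 myeloid leukemia cell markers 2 were lower and 4 higher. Among all genes tested 26.2% were called lower and 26.3% higher in that comparison. FLT3 fell with shRNA 1 (-0.42, edgeR adjusted p = 0.0146) and shRNA 2 (-1.17, edgeR adjusted p = 1.02e-05), while CD33, CEBPA and HOXA9 did not pass with either. MPO, of the same list, rose with shRNA 1 (1.56, edgeR adjusted p = 0.00272) and fell with shRNA 2 (-1.27, edgeR adjusted p = 0.00474).

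Serine is made from an intermediate of glycolysis in a short chain of steps. PHGDH oxidises 3-phosphoglycerate, PSAT1 adds the amino group and PSPH removes the phosphate. The serine hydroxymethyltransferases SHMT1, in the cytosol, and SHMT2, in mitochondria, then split serine into glycine and a one-carbon unit that is carried by folate. MTHFD1 in the cytosol, MTHFD2 in mitochondria and ALDH1L2 in mitochondria interconvert or oxidise these folate-bound units, which serve the synthesis of purines and thymidylate and, through methionine, methylation. CBS joins serine to homocysteine and CTH splits the product to cysteine, the amino acid that limits glutathione synthesis. Several of these genes are known targets of ATF4, the transcription factor of the amino acid response, and dividing cells, leukemia cells among them, are known to use the pathway heavily.

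All 10 genes fell with shRNA 1 and all 10 fell with shRNA 2. In each gene all 3 libraries of each shRNA lay below every control library, in an analysis of all 9 libraries by edgeR's quasi-likelihood F-test with Benjamini-Hochberg adjustment over 16746 genes and a threshold of 0.05. None of the 10 was called higher. Among all genes tested, 19% were called lower with shRNA 1, 27.4% with shRNA 2 and 15.2% with both, and in 19.8% all 6 libraries lay below every control, while 20.4% were called higher with shRNA 1 and 27.5% with shRNA 2. The median log2 fold change of the 10 was -1.90 with shRNA 1 and -2.08 with shRNA 2, against 0.02 and -0.02 over all genes. All but PSPH and MTHFD2, 8 of the 10, were lower by at least 2-fold with each shRNA, as 5.2% of all genes were. Both comparisons share the 3 control libraries.

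Because all 10 genes moved in the same direction, the promoter sequences of 4 of the most lowered are shown here, together with those of MTHFD1 and of ASNS, a gene outside the pathway that serves as reference for the ATF4 element. RefSeq windows of GRCh38.p14, which reach from 250 bases before each start to 50 after it, matched 7 of the 10 genes. The bases before the start are printed 5′ to 3′ on the strand of the gene, with matches of 3 motifs on either strand in capitals. TGATGNAA is the composite element of ATF4 and C/EBP factors, CACGTG is the E-box of MYC and MAX, and CCAAT is the box bound by NF-Y. CCAAT was added after the sequences had been seen. Of the 7 genes, MTHFD1 alone held CACGTG. The windows of MTHFD2 and SHMT1, with 2 CCAAT matches each before the start, are not printed. The windows lie at chr1:119711684-119711933 (plus strand) for PHGDH, chr9:78296875-78297124 (plus) for PSAT1, chr1:70411018-70411267 (plus) for CTH, chr21:43075836-43076085 (minus, 1 of 3 windows) for CBS, chr14:64388103-64388352 (plus) for MTHFD1 and chr7:97872409-97872658 (minus, 1 of 2 windows) for ASNS.
PHGDH: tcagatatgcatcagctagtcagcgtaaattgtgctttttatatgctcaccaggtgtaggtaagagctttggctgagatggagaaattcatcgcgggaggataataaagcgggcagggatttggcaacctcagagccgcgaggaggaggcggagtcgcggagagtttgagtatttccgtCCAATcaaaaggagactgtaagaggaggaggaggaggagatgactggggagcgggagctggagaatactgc
PSAT1: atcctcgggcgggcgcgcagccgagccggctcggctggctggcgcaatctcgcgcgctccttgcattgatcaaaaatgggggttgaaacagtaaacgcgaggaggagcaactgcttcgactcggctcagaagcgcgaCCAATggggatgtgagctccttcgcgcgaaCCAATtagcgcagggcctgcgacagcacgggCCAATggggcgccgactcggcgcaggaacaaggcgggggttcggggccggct
CTH: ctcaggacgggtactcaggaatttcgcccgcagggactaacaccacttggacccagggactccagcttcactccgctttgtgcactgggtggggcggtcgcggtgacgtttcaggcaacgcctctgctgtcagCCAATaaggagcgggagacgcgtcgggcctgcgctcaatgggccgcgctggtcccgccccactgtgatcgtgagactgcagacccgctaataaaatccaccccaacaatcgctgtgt
CBS: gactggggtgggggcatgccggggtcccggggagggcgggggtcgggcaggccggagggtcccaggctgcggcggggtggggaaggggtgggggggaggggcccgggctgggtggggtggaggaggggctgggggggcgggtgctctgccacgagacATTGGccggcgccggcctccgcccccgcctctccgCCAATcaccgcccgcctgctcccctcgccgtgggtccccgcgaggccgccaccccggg
MTHFD1: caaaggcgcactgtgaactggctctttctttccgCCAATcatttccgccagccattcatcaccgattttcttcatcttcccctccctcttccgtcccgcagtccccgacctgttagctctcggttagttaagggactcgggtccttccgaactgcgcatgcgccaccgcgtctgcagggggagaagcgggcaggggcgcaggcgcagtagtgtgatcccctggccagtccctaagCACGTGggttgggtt
ASNS: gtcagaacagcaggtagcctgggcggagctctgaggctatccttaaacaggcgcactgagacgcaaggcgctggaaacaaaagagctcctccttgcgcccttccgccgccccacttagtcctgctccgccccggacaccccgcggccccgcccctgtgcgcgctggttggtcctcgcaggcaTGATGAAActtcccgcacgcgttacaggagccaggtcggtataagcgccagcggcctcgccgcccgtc

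TGATGNAA was in 0 of the 9 windows of the enzyme genes and in 3.62% of all 35116 windows, while the ASNS window held it 68 bases before the start. CACGTG was in 1 of the 9, that of MTHFD1, 15 bases before the start, against 7.26% of all windows. CCAAT was in 8 of the 9, with at least 1 window in each of the 7 genes, against 34.6% of all windows. GGGCGG, the GC box, was likewise added afterwards, and was in 5 of the 9, in 4 of the 7 genes, against 45.0% of all windows and 61.2% of the windows of genes tested. It is not marked in the sequences. PSAT1 held CCAAT at 3 positions, 113, 83 and 52 bases before the start, and PHGDH at 1 position, 71 bases before. The CBS window shown is the one with the most CCAAT matches, 2, while the other CBS windows held 0 and 1. The matches of TGATGNAA, CACGTG and CCAAT shared no bases. A missing match says only that these letters are not in this window, and no binding was measured.

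Summed over the 10 genes, the level was 1913 ± 208 CPM in the controls, 605 ± 94.0 CPM with shRNA 1 and 604 ± 69.5 CPM with shRNA 2 (mean and SD, n = 3 each), or 31.7% and 31.6% of control. The sums of both shRNA groups thus lay within 1 SD of each other, although single genes differed between them. By role, the sums with shRNA 1 and shRNA 2 were 21.9% and 22.9% of control for serine synthesis, 29.2% and 17.9% for the hydroxymethyltransferases, 41.6% and 47.4% for the folate enzymes and 11.7% and 16.6% for transsulfuration. MTHFD2 alone made up 25.7%, 24.3% and 22.1% of the sum in the controls, 39.5%, 33.8% and 35.6% with shRNA 1 and 48.7%, 48.7% and 50.5% with shRNA 2. In bulk RNA, fewer cells that express a gene and less of its RNA per cell cannot be told apart. Monocyte and macrophage markers moved in the opposite direction in the same libraries. Of 17 tested (18 listed), 13 were higher with shRNA 1 and 17 with shRNA 2. The sum over the list ran from 439.9 to 597 CPM in the controls, from 2245 to 4538 CPM with shRNA 1 and from 3956 to 4949 CPM with shRNA 2. In the shRNA libraries most of this sum was LYZ, which ran from 1691 to 3789 CPM with shRNA 1 and from 2485 to 2961 CPM with shRNA 2. In the controls LYZ ran from 137 to 273 CPM. LYZ and CSF1R had log2 fold changes of 3.78 and 2.23 with shRNA 1 and 3.83 and 1.99 with shRNA 2, while CLEC7A rose by 2.86 with shRNA 1 and 7.47 with shRNA 2 (difference 4.61, edgeR adjusted p = 4.98e-06). FCGR3A stood at 0.0319, 0 and 0.0150 CPM in the controls, under the level of 3 counts, at 0.496, 0.275 and 0.112 CPM with shRNA 1 and at 1.39, 0.726 and 1.17 CPM with shRNA 2, and no fold is given. CD14, a defining monocyte gene, was at 0.0781 CPM in the controls, at 0.0991 CPM with shRNA 1 (edgeR adjusted p = 0.722) and at 0.629 CPM with shRNA 2 (edgeR adjusted p = 0.0015). Their part in the lower enzyme levels was not tested.

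**Figure D1:**
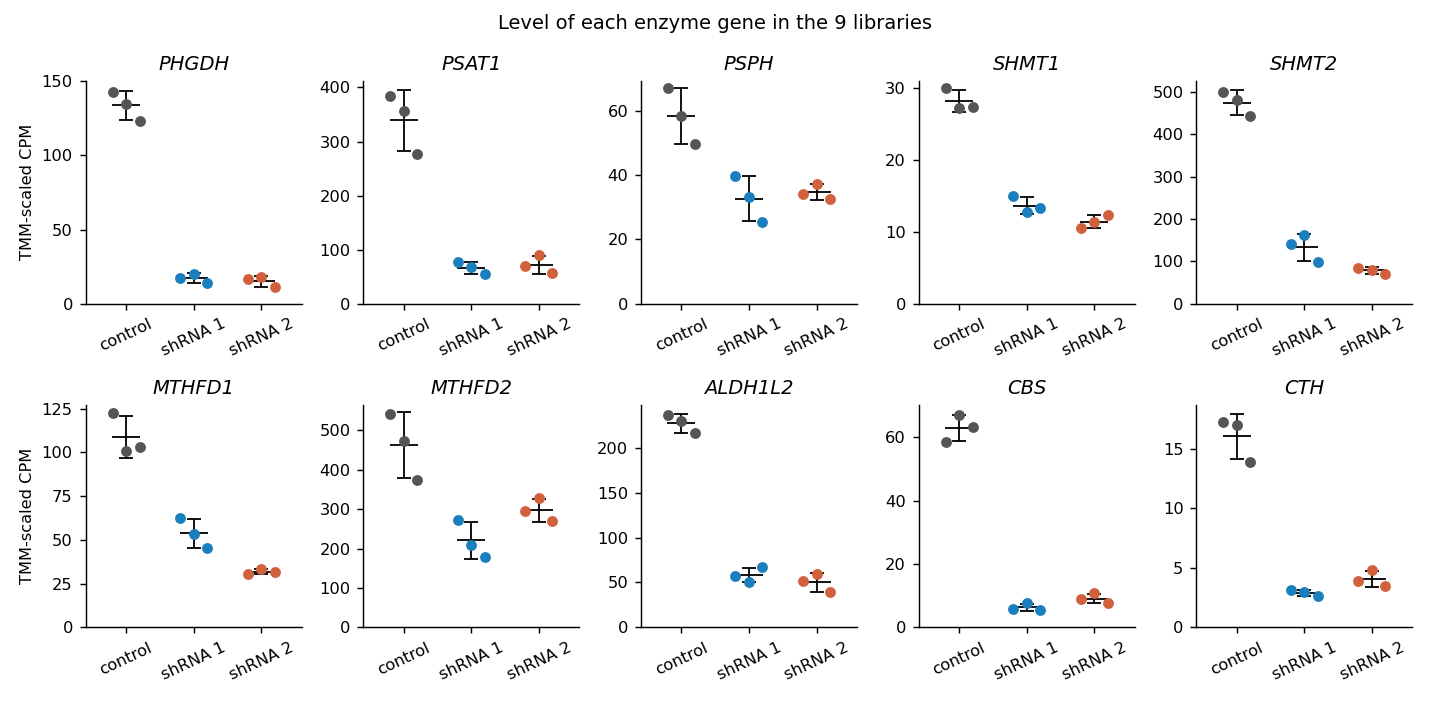
TMM-scaled CPM of each of the 10 genes (vertical axes, each starting at 0) in the 9 libraries, grouped as control, shRNA 1 and shRNA 2. Points are libraries, and the black dash and bar are the mean and SD of 3. In every panel the 6 shRNA points lie below the 3 control points, and MTHFD2 stays at 294, 328 and 269 CPM with shRNA 2.

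Of the serine synthesis enzymes, PHGDH and PSAT1 fell strongly and PSPH less. PHGDH stood at 143, 135 and 123 CPM in control libraries 1 to 3, at 17.4, 20.3 and 13.7 CPM with shRNA 1 and at 16.8, 17.9 and 10.9 CPM with shRNA 2. Control and shRNA libraries were far apart, and the libraries of both shRNAs overlapped. With shRNA 1 PHGDH was 7.81-fold lower (edgeR adjusted p = 3.82e-06, log2 fold change -2.96 ± 0.19, SE), and with shRNA 2 it was 8.80-fold lower (edgeR adjusted p = 6.01e-07, log2 fold change -3.14 ± 0.19). For the mean of both shRNAs, 0.269% of all genes tested had a lower log2 fold change than PHGDH.

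PSAT1 is the aminotransferase. PSAT1 stood at 385, 356 and 277 CPM in control libraries 1 to 3, at 77.2, 68.2 and 54.7 CPM with shRNA 1 and at 68.9, 89.2 and 56.3 CPM with shRNA 2. Its controls spread more than those of PHGDH, yet the lowest control was above the highest shRNA library by a wide margin. With shRNA 1 PSAT1 was 5.08-fold lower (edgeR adjusted p = 1.36e-05, log2 fold change -2.35 ± 0.19), and with shRNA 2 it was 4.74-fold lower (edgeR adjusted p = 5.32e-06, log2 fold change -2.25 ± 0.19). PSPH stood at 67.2, 58.4 and 49.6 CPM in control libraries 1 to 3, at 39.6, 33.1 and 25.5 CPM with shRNA 1 and at 34.3, 37.4 and 32.5 CPM with shRNA 2. The phosphatase thus kept more of its level than the enzymes of the first steps, 56.1% and 59.4% of the control mean. With shRNA 1 PSPH was 1.78-fold lower (edgeR adjusted p = 0.00206, log2 fold change -0.84 ± 0.16), and with shRNA 2 it was 1.68-fold lower (edgeR adjusted p = 0.00237, log2 fold change -0.75 ± 0.16).

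Both serine hydroxymethyltransferases fell, and the mitochondrial SHMT2 was lower with shRNA 2 than with shRNA 1. SHMT2 stood at 501, 482 and 443 CPM in control libraries 1 to 3, at 140.3, 162 and 98.0 CPM with shRNA 1 and at 85.5, 80.4 and 70.5 CPM with shRNA 2. The 3 groups did not overlap. With shRNA 1 SHMT2 was 3.56-fold lower (edgeR adjusted p = 1.69e-05, log2 fold change -1.83 ± 0.16), and with shRNA 2 it was 6.03-fold lower (edgeR adjusted p = 4.67e-07, log2 fold change -2.59 ± 0.16). SHMT1 stood at 30.0, 27.2 and 27.4 CPM in control libraries 1 to 3, at 14.9, 12.8 and 13.2 CPM with shRNA 1 and at 10.5, 11.3 and 12.3 CPM with shRNA 2. The cytosolic gene kept 48.5% of its control level with shRNA 1 and 40.4% with shRNA 2. With shRNA 1 SHMT1 was 2.06-fold lower (edgeR adjusted p = 4.84e-05, log2 fold change -1.05 ± 0.11), and with shRNA 2 it was 2.47-fold lower (edgeR adjusted p = 3.54e-06, log2 fold change -1.31 ± 0.11).

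The 3 folate enzymes also fell, ALDH1L2 by the largest fold. ALDH1L2 oxidises formyl-tetrahydrofolate in mitochondria. ALDH1L2 stood at 237, 229.9 and 216 CPM in control libraries 1 to 3, at 57.2, 50.5 and 66.7 CPM with shRNA 1 and at 51.3, 60.0 and 39.4 CPM with shRNA 2. Libraries of both shRNAs overlapped, far below the controls. With shRNA 1 ALDH1L2 was 3.91-fold lower (edgeR adjusted p = 7.05e-06, log2 fold change -1.97 ± 0.15), and with shRNA 2 it was 4.53-fold lower (edgeR adjusted p = 8.43e-07, log2 fold change -2.18 ± 0.15). MTHFD1 is the trifunctional cytosolic enzyme. MTHFD1 stood at 123, 101 and 103 CPM in control libraries 1 to 3, at 62.4, 53.3 and 45.5 CPM with shRNA 1 and at 30.3, 33.2 and 31.5 CPM with shRNA 2. As for SHMT2, the shRNA 2 libraries lay below all shRNA 1 libraries. With shRNA 1 MTHFD1 was 2.02-fold lower (edgeR adjusted p = 0.000124, log2 fold change -1.02 ± 0.13), and with shRNA 2 it was 3.43-fold lower (edgeR adjusted p = 9.2e-07, log2 fold change -1.78 ± 0.13).

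MTHFD2, the mitochondrial dehydrogenase and cyclohydrolase that is high in many tumours and low in most adult tissues, had the log2 fold change nearest to 0 of the 10 with shRNA 2. MTHFD2 stood at 540.3, 474 and 374 CPM in control libraries 1 to 3, at 273, 209.7 and 179.6 CPM with shRNA 1 and at 294, 328 and 269 CPM with shRNA 2. The control libraries spread widely, and the lowest of them lay close to the highest shRNA 2 library. With shRNA 1 MTHFD2 was 2.10-fold lower (edgeR adjusted p = 0.000739, log2 fold change -1.07 ± 0.17), and with shRNA 2 it was 1.56-fold lower (edgeR adjusted p = 0.0091, log2 fold change -0.64 ± 0.17). MTHFD2 and PSPH lay nearest to the bulk of genes: 11.6% and 13.1% of all genes tested had a lower log2 fold change for the mean of both shRNAs.

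Both transsulfuration enzymes fell, and CBS had the lowest log2 fold change of the 10 with shRNA 1. CBS stood at 58.6, 67.0 and 63.3 CPM in control libraries 1 to 3, at 5.96, 7.61 and 5.37 CPM with shRNA 1 and at 8.98, 10.7 and 7.62 CPM with shRNA 2. The 3 groups did not overlap. CBS kept 10.0% of its control level with shRNA 1 and 14.5% with shRNA 2. With shRNA 1 CBS was 9.97-fold lower (edgeR adjusted p = 7.35e-07, log2 fold change -3.32 ± 0.15), and with shRNA 2 it was 6.91-fold lower (edgeR adjusted p = 1.89e-07, log2 fold change -2.79 ± 0.15). CTH stood at 17.3, 17.0 and 13.9 CPM in control libraries 1 to 3, at 3.14, 2.98 and 2.62 CPM with shRNA 1 and at 3.92, 4.78 and 3.45 CPM with shRNA 2. These levels rest on 124 to 1084 reads per library. With shRNA 1 CTH was 5.51-fold lower (edgeR adjusted p = 3.09e-06, log2 fold change -2.46 ± 0.16), and with shRNA 2 it was 3.96-fold lower (edgeR adjusted p = 2.65e-06, log2 fold change -1.98 ± 0.16). Summed, the pair held 79.0 ± 4.35 CPM in the controls, 9.22 ± 1.30 CPM with shRNA 1 and 13.2 ± 2.22 CPM with shRNA 2 (SD, n = 3).

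CBS has a near-identical copy, CBSL, on chromosome 21 in the GENCODE annotation of GRCh38. The counts, made on hg19, held 3 CBS rows and no CBSL row, and the lowest of these rows held 97.6% of the counts of the highest. The copy belongs to that assembly, and the counts give no level for it apart from CBS. Any reads of such a sequence could not be told apart from CBS reads, so the CBS level given is that of the kept CBS row. Across the members with several rows, the lowest row held at least 97.6% of the highest, so the choice of row hardly moved the counts. Pseudogenes named after PSAT1, PSPH, SHMT1, MTHFD1 and MTHFD2 are annotated too. The treatment of reads that map to more than 1 place is not given in the sources used here.

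SHMT1, SHMT2, MTHFD1, MTHFD2 and ALDH1L2 each overlap a gene on the opposite strand. The library kit keeps the strand, but whether counting used it is not given in the sources used here, so these 5 levels are uncertain to the extent of their partners. NDUFA4L2, the partner of SHMT2, was at 3.32 ± 0.276 CPM in the controls, far under SHMT2 itself. It fell as SHMT2 did (-2.53 with shRNA 1, edgeR adjusted p = 0.000176, and -1.55 with shRNA 2, edgeR adjusted p = 0.00175). ZBTB25, the partner of MTHFD1, was at 5.76 ± 0.453 CPM in the controls, far under MTHFD1 itself. It did not pass for the mean of both shRNAs (0.10, edgeR adjusted p = 0.591). Its changes had opposite signs, -0.19 with shRNA 1 and 0.39 with shRNA 2, and the direct difference was 0.58 (edgeR adjusted p = 0.02). SMCR8, the partner of SHMT1, stood at 57.1 ± 5.41 CPM in the controls and rose (0.52, edgeR adjusted p = 0.00158), against the direction of SHMT1. C12orf45, the partner of ALDH1L2, stood at 36.6 ± 4.31 CPM and had a log2 fold change of -0.33 (edgeR adjusted p = 0.0267). SLC4A5, the partner of MTHFD2, stood at 49.7 ± 4.30 CPM and moved with it (-1.18 with shRNA 1, edgeR adjusted p = 0.0001, and -0.67 with shRNA 2, edgeR adjusted p = 0.00207).

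**Figure D2:**
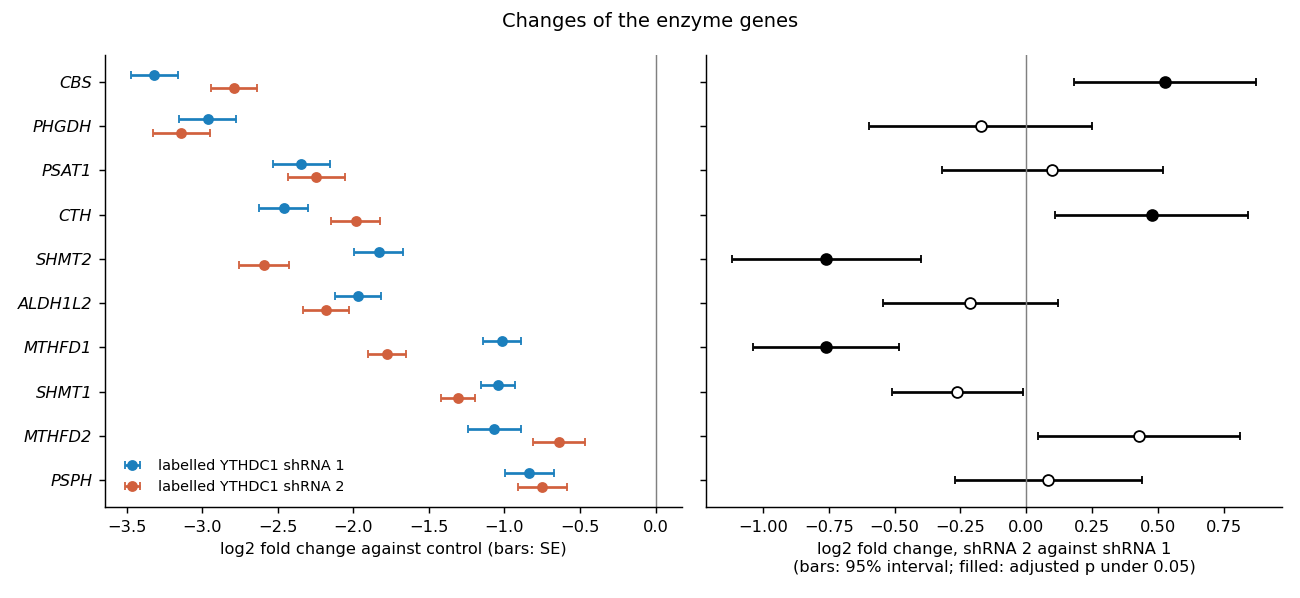
Left, log2 fold change of each gene against control with shRNA 1 and shRNA 2 (points, with SE bars). Right, the difference of shRNA 2 from shRNA 1 on the log2 scale with its 95% interval, filled where adjusted p was under 0.05. All points on the left are below 0, and the filled points on the right are SHMT2 and MTHFD1 (-0.76 each) and CBS and CTH (0.53 and 0.48).

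The direct comparison of shRNA 2 with shRNA 1 gave calls for 4 members. SHMT2 and MTHFD1 were lower with shRNA 2, and CBS and CTH were less reduced. Of the 10, 2 were thus called lower and 2 higher, against 16.5% and 15.5% of all genes tested (32% in either direction). The difference was -0.76 for SHMT2 (95% interval -1.12 to -0.40, edgeR adjusted p = 0.00496) and -0.76 for MTHFD1 (-1.04 to -0.48, edgeR adjusted p = 0.00106). For CBS it was 0.53 (0.18 to 0.87, edgeR adjusted p = 0.025) and for CTH 0.48 (0.11 to 0.84, edgeR adjusted p = 0.0485). The calls of CBS and CTH depended on the setting. CBS no longer passed without replicate 1 of shRNA 1 (edgeR adjusted p = 0.078), replicate 3 of shRNA 1 (0.0572) or replicate 2 of shRNA 2 (0.118). CTH did not pass when any library other than replicate 3 of shRNA 2 was left out, with edgeR adjusted p from 0.0541 without control replicate 3 to 0.211 without replicate 2 of shRNA 2.

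For the other 6 genes no difference between the shRNAs passed in the main analysis. The interval was 0.05 to 0.81 on the log2 scale for MTHFD2 (edgeR adjusted p = 0.0834), whose difference of 0.43 passed with a replicate block (edgeR adjusted p = 0.0225), with upper-quartile scaling (0.0178) and without replicate 1 of shRNA 1 (0.0229). It was -0.51 to -0.01 for SHMT1 (edgeR adjusted p = 0.101). It was -0.60 to 0.25 for PHGDH, -0.32 to 0.52 for PSAT1, -0.27 to 0.44 for PSPH and -0.54 to 0.12 for ALDH1L2. Differences of up to these bounds are compatible with the data. The libraries of both shRNAs did not overlap for SHMT1, SHMT2, MTHFD1, CBS and CTH, 5 of the 10, which is close to the 44.7% of all genes tested.

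Replicate 1 of shRNA 2, the library that lacked reads of other genes, did not stand apart for these 10. Its level relative to the mean of the other shRNA 2 libraries ran from 0.887 (SHMT1) to 1.16 (PHGDH). Without it, all 10 genes were still called lower with shRNA 2, with log2 fold changes from -3.23 for PHGDH to -0.65 for MTHFD2 (edgeR adjusted p = 0.0162 for the latter).

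Ratios of the mitochondrial to the cytosolic gene within a library do not depend on library scaling. The ratio of SHMT2 to SHMT1 counts was 16.7, 17.7 and 16.2 in the controls, 9.39, 12.6 and 7.40 with shRNA 1 and 8.15, 7.09 and 5.73 with shRNA 2. All 6 shRNA libraries lay below the controls. The log2 ratio was different by -0.82 with shRNA 1 and by -1.29 with shRNA 2 (exact permutation test, two-sided, p = 0.1 each, the smallest that 3 against 3 libraries can give). Over both shRNAs the difference was -1.05 (exact permutation p = 0.0119, the smallest that 6 against 3 can give; 0.0952 after Benjamini-Hochberg adjustment over the 8 ratio tests). Between the shRNAs it was -0.47 (exact permutation p = 0.2).

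The ratio of MTHFD2 to MTHFD1 counts was higher in the shRNA 2 libraries than in all others. It was 4.40, 4.71 and 3.63 in the controls and 4.38, 3.93 and 3.94 with shRNA 1, which overlapped, and 9.69, 9.86 and 8.54 with shRNA 2, where every library lay above all others. The log2 difference from control was -0.05 with shRNA 1 (exact two-sided permutation p = 0.8) and 1.15 with shRNA 2 (exact permutation p = 0.1, the smallest possible). Between the shRNAs it was 1.20 (exact permutation p = 0.1, the smallest possible), and over both against control 0.55 (exact permutation p = 0.31). After adjustment over the 8 ratio tests, none passed 0.05. The overlaps of these genes with genes of the opposite strand, given above, apply to the ratios too.

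**Figure D3:**
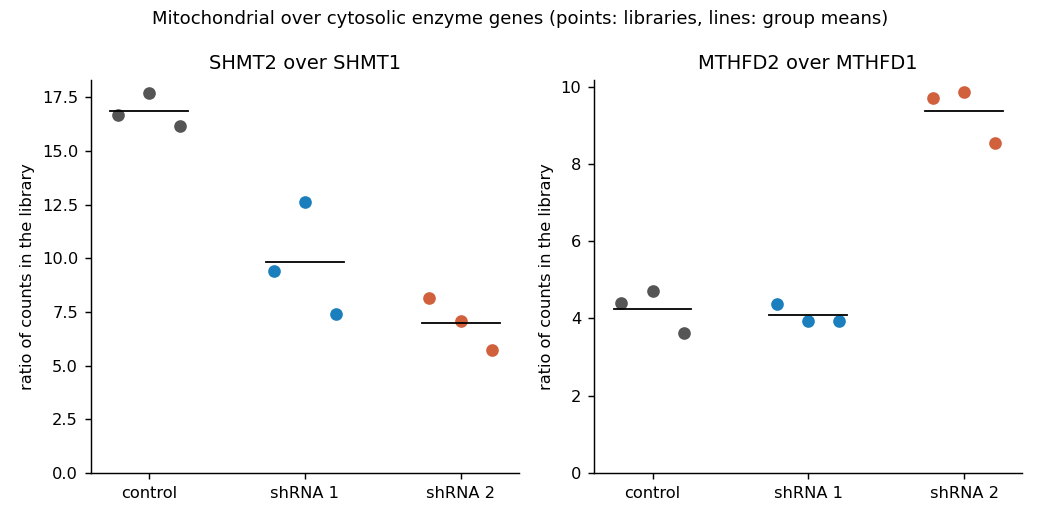
Ratio of counts of SHMT2 to SHMT1 (left) and of MTHFD2 to MTHFD1 (right) in each library, on linear axes that start at 0. Points are libraries and lines are group means of 3. The left ratio runs from 16.2 to 17.7 in the controls and lies lower in all shRNA libraries, while the right one is higher in the shRNA 2 libraries only.

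Levels of different genes were compared per kilobase of transcript, with the lengths of GENCODE transcripts that match the kept rows. In the controls the order was SHMT2 (224 ± 13.9 CPM per kb, SD, n = 3), PSAT1 (155 ± 25.5), MTHFD2 (104 ± 18.8), PHGDH (63.8 ± 4.68), MTHFD1 (34.7 ± 3.86), ALDH1L2 (30.2 ± 1.39), PSPH (27.4 ± 4.14), CBS (24.2 ± 1.62), SHMT1 (11.4 ± 0.640) and CTH (8.89 ± 1.04). With these lengths PSPH overlapped with its neighbours ALDH1L2 and CBS, and the other neighbours did not overlap. With shRNA 2 the order changed at the top, where MTHFD2 (66.7 ± 6.59 CPM per kb) stood above SHMT2 (37.2 ± 3.61), which overlapped with PSAT1 (32.7 ± 7.58). With shRNA 1, SHMT2 (62.9 ± 15.3) and MTHFD2 (49.6 ± 10.7) overlapped at the top, and SHMT1 stood above CBS (5.54 ± 0.457 against 2.42 ± 0.445). The order depends on the lengths: the MTHFD2 transcript used has 4456 bases and other coding ones have 1757 and 1865. With those, MTHFD2 would stand at 263 ± 47.7 or 248 ± 44.9 CPM per kb in the controls and first in all 3 groups, so the change at the top with shRNA 2 rests on the longer transcript. These MTHFD2 lengths were tried after the data had been seen. Other rows of PSAT1 and CTH match shorter transcripts, of 1411 and 1196 bases against the 2188 and 1805 used. The places of PSAT1 below SHMT2 and of CTH below SHMT1 therefore rest on the lengths used as well.

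**Figure D4:**
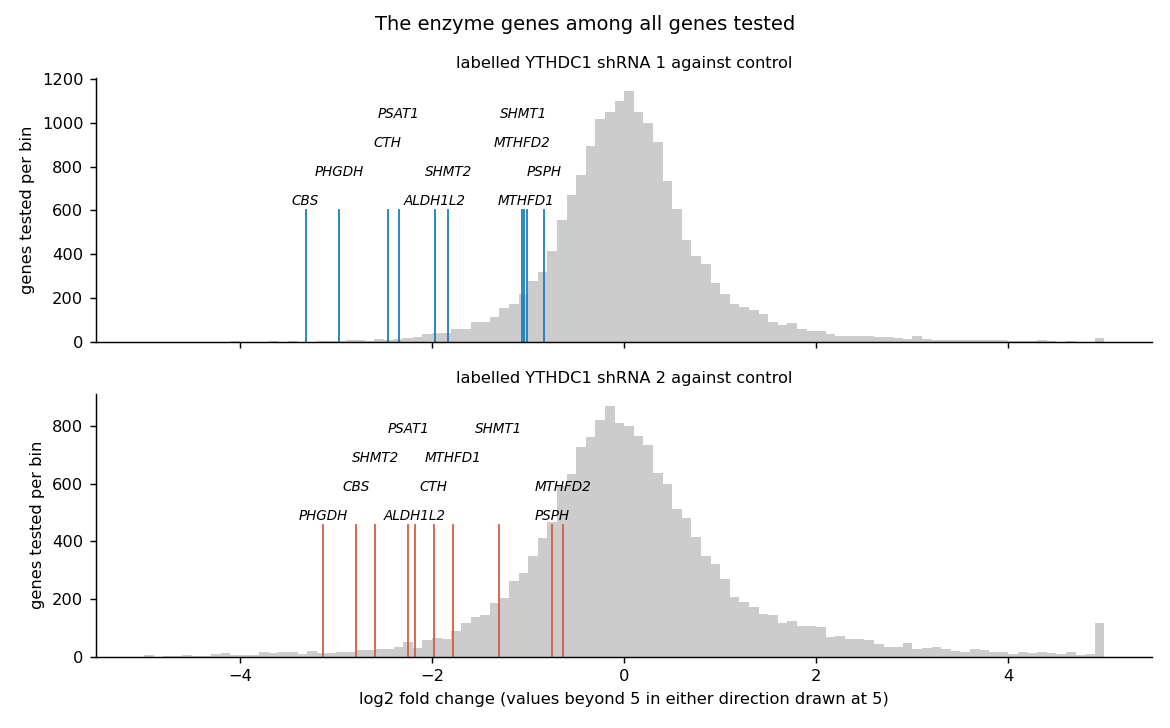
Histogram of log2 fold changes of the 16746 genes tested with shRNA 1 (top) and shRNA 2 (bottom), values beyond 5 drawn at 5. Lines mark the 10 genes, all left of 0, from -3.32 (CBS) to -0.84 (PSPH) with shRNA 1 and from -3.14 (PHGDH) to -0.64 (MTHFD2) with shRNA 2.

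Lists of neighbouring pathways, counted for the mean of both shRNAs, did not move as one. Of all genes tested 26.2% were called lower and 26.3% higher in that comparison. Among the other folate enzymes and carriers, 9 of 15 tested (17 listed) were lower and 4 higher (median log2 fold change -0.58). GGH, which trims polyglutamate from folate, and SLC19A1, the reduced folate carrier, had the largest changes, -1.34 (edgeR adjusted p = 2.89e-05) and -1.33 (edgeR adjusted p = 0.000499). Of the glycine cleavage and serine use list, 3 of 11 tested (12 listed) were lower and 2 higher (median 0.03). SDS, which breaks serine down, stood at 0.159, 0.205 and 0.165 CPM in control libraries 1 to 3, at 0.457, 0.469 and 0.150 CPM in those of shRNA 1 and at 11.6, 7.34 and 5.97 CPM in those of shRNA 2. It rose with shRNA 2 (5.53, edgeR adjusted p = 1.21e-06) and did not pass with shRNA 1 (1.02, edgeR adjusted p = 0.0948). The related SDSL rose by 1.51 for the mean of both (edgeR adjusted p = 0.00391).

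In the methionine cycle, 4 of 11 tested (14 listed) were lower and 1 higher (median -0.17). GNMT, which methylates glycine, rose by 0.93 from a low level (edgeR adjusted p = 0.000958), and AHCYL1, a relative of the hydrolase of S-adenosylhomocysteine, fell (-0.70, edgeR adjusted p = 3.55e-05). For cysteine use and glutathione, 4 of 16 tested (17 listed) were lower and 3 higher (median 0.10). CHAC1, which degrades glutathione and is a target of ATF4, stood at 13.5, 18.0 and 9.66 CPM in control libraries 1 to 3, at 0.755, 1.44 and 0.655 CPM in those of shRNA 1 and at 2.97, 3.74 and 2.04 CPM in those of shRNA 2 (-3.03 for the mean of both, edgeR adjusted p = 1.05e-05), and MPST, which moves sulfur from mercaptopyruvate, fell by less (-0.97, edgeR adjusted p = 0.00369).

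The list of known regulators and ATF4 reference genes is mixed and also holds MYC, NFE2L2 and KEAP1. Of its 12 genes 8 were lower, MYC among them, and 1 was higher, NFE2L2 (median -0.31). ASNS, the asparagine synthetase and a classical ATF4 target, stood at 185, 167 and 127 CPM in control libraries 1 to 3, at 22.4, 21.1 and 22.2 CPM in those of shRNA 1 and at 30.9, 37.9 and 23.5 CPM in those of shRNA 2 (-2.62 for the mean, edgeR adjusted p = 2.23e-07). TRIB3, a pseudokinase induced by ATF4, had a log2 fold change of -2.32 with shRNA 1 and -1.40 with shRNA 2 (difference 0.92, edgeR adjusted p = 0.00323). The mRNA of ATF4 itself, whose protein is set mostly by translation, stood at 611, 594 and 472 CPM in control libraries 1 to 3, at 371, 353 and 317 CPM in those of shRNA 1 and at 314, 329 and 286 CPM in those of shRNA 2 (-0.77, edgeR adjusted p = 0.000119). MYC, another known regulator of serine synthesis genes, stood at 514, 531 and 494 CPM in control libraries 1 to 3, at 212, 217 and 159.7 CPM in those of shRNA 1 and at 125, 125 and 129.6 CPM in those of shRNA 2 (-1.70, edgeR adjusted p = 2.72e-07). Whether either factor had a part in the lower enzyme levels was not tested.

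**Figure D5:**
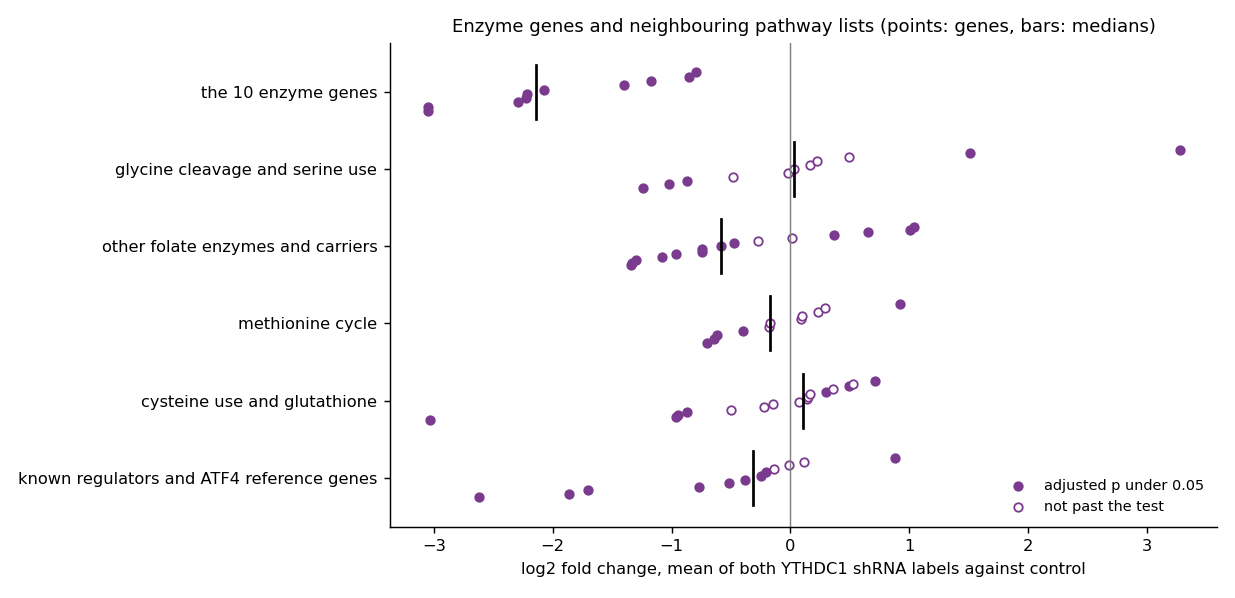
Log2 fold change for the mean of both shRNAs against control (horizontal axis) of each tested gene of the 10 and of the neighbouring lists. Filled points had an adjusted p under 0.05, and black bars are medians. The median of the 10 is -2.14, and those of the other lists run from -0.58 to 0.10.

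Likeness of profiles was measured as the root mean square difference, over the 9 libraries, of log2 levels set relative to the control mean. Among genes outside the 10, the profile of PHGDH was nearest to those of MCM2 (0.301), a subunit of the replicative helicase, and TONSL (0.314), of fork repair. FJX1 and GPT2 (0.441 each) and HIST1H2AE (0.454) came next. GPT2, a mitochondrial alanine aminotransferase, had log2 fold changes of -2.53 and -2.54. Outside the 10, CBS was nearest to FJX1 (0.377), TONSL (0.414), ASNS (0.423), ADM2 (0.456) and GPT2 (0.481). Within the 10, the nearest other member was found for each gene. PSPH and MTHFD2 (0.155), PSAT1 and CTH (0.188), SHMT1 and MTHFD1 (0.286) and PHGDH and CBS (0.320) were nearest to each other. ALDH1L2 was nearest to PSAT1 (0.305) and SHMT2 to ALDH1L2 (0.373). These distances describe the 9 libraries, which share 1 scaling and the controls as reference, and carry no test.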

How the data were processed

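RNA from 9 MOLM13 samples was sequenced after a stranded mRNA library preparation, per the labels' protocols. The authors deposited whole-number counts per transcript for all libraries in 1 table. The submitters' processing notes name STAR, DESeq and hg19; what each did, their versions, the counting program and its handling of strand and of multiply mapped reads are not stated there. The 48104 rows held 25679 symbols, 9509 of them on more than 1 row, and the row with the highest total was kept. Of 80 symbols that had become dates, 78 were restored from transcript identifiers and 2 were left out. The per-sample columns not used numbered 0.

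The main test was that of edgeR 4.0.16 under R 4.3.3 (filterByExpr, TMM, robust quasi-likelihood fit, two-sided F-test) in 1 fit of all 9 libraries with a mean per group. P-values were adjusted by Benjamini-Hochberg over 16746 genes, with a threshold of 0.05. That fit also gave standard errors (SE) and 95% intervals. The steps were tested on simulated counts. Ratios were tested by exact permutation over libraries. Floors of 3 counts cover counting error only, since the reads carry no molecular identifiers. Profiles used log2 CPM (prior count 2) and, for genes outside the 10, a control mean of at least 5 CPM.

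The genes, lists and tests were chosen with earlier results of these data known. All 10 genes are named; from each other list up to 2 genes, those with the largest absolute mean log2 fold change past the threshold, are named, besides ATF4, MYC, YTHDC1, the genes that overlap one of the 10 and the 5 nearest profiles of PHGDH and CBS. Defining markers and the counts of lists serve as description, with no test of a list. The labels do not say that equal replicate numbers mark a shared culture or batch. Deviations of same-numbered libraries correlated from -0.0876 to 0.568, and 2 of 9 pairs were over 0.1. Those of differently numbered libraries ran from -0.515 to 0.262, with 2 of 18 over 0.1. Between control and shRNA 1 the same-numbered pairs stood at 0.568, 0.0477 and 0.214. A replicate effect shared by these groups was therefore not settled, and a replicate block was run as an alternative. The alternatives were DESeq2 1.42.0 (size factors, Wald test), upper-quartile scaling, no filter, only the groups compared, a replicate block, the second-highest row, leaving out ribosomal precursor rows, leaving out each library and, for ratios, 0.5 counts added. Promoters are RefSeq sequences of GRCh38.p14, which is not the build of the counts.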

Additional observations from a re-analysis of the deposited data

Results flagged for a closer look

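Of the 10 genes, 4 had effects that differed between the shRNAs by the test of the difference itself (edgeR, shRNA 2 against shRNA 1, adjusted over 16746 genes). SHMT2 was lower with shRNA 2 by a log2 difference of -0.76 (adjusted p = 0.00496), in 3 of 3 libraries against all of shRNA 1. MTHFD1 was lower by -0.76 (edgeR adjusted p = 0.00106). CBS was higher with shRNA 2 by 0.53 (edgeR adjusted p = 0.025) and CTH by 0.48 (edgeR adjusted p = 0.0485), both in 3 of 3 libraries. The calls of CBS and CTH are unstable: CBS lost its call when any 1 of 3 libraries was left out and with only the groups compared, and CTH when any library but replicate 3 of shRNA 2 was left out, without the filter, with the second-highest row and with only the groups compared. Among all genes, 32% passed this comparison in either direction, so 4 of 10 is near the share of all genes.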

How the results depend on the processing

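All 10 genes were called lower with shRNA 1, shRNA 2 and their mean under each alternative run, and the alternative values of single genes (170, 170 and 160) all kept their direction and their call. The weakest was MTHFD2 with shRNA 2, whose edgeR adjusted p reached 0.0497. For the mean, a fit of only the groups compared is the fit of all groups and gave no separate value. Between the shRNAs, 148 of 170 values kept direction and side of the threshold, 15 lost the call, 3 gained it and 4 reversed. The number of the 10 called higher with shRNA 2, 2 in the main analysis, was 1 without the filter, 0 with only the groups compared and 1 with the second-highest row. When 1 library was left out it ran from 0 to 2, and the number called lower stayed at 2. The reversed values were small. They were PSAT1 -0.026 and PSPH -0.067 without shRNA 1 replicate 3, PSAT1 -0.10 without shRNA 2 replicate 2, and PHGDH 0.026 without shRNA 2 replicate 3. The log2 ratio of MTHFD2 to MTHFD1 with shRNA 1 ran from -0.16 to 0.029 when 1 library was left out, 0.029 being the value without control replicate 2 and -0.16 that without control replicate 3. None of PHGDH, PSAT1 and PSPH was called between the shRNAs in the main analysis. Their values ran from -0.32 to 0.026 (PHGDH), -0.10 to 0.25 (PSAT1) and -0.067 to 0.25 (PSPH) when 1 library was left out. The cause of these shifts was not tested.

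The numbers do not pair the libraries by the labels. With the replicate block, 10, 10 and 10 genes were called lower with shRNA 1, shRNA 2 and their mean, and between the shRNAs 2 were lower and 3 higher, MTHFD2 being added (0.45, edgeR adjusted p = 0.0225). MTHFD2 was also called with upper-quartile scaling (0.54, edgeR adjusted p = 0.0178) and without shRNA 1 replicate 1 (0.61, edgeR adjusted p = 0.0229). CBS and CTH lost their calls with only the groups compared (edgeR adjusted p = 0.0787 and 0.119). Upper-quartile scaling moved the median log2 fold change of all genes with shRNA 2 to 0.12, and no filter moved it to 0.18. Of 1340 alternative counts over the other lists, 1220 stayed within 1.5 times. With 3 libraries a group, the ratio tests of 1 shRNA against control could not reach 0.05.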

Other observations

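Some genes of the neighbouring lists rose while the 10 enzymes fell; they were chosen after their values were seen. MTHFD2L, a mitochondrial relative of MTHFD2, stood at 5.27, 5.47 and 4.87 CPM in control libraries 1 to 3, at 7.67, 7.36 and 6.51 CPM in those of shRNA 1 and at 9.20, 9.42 and 9.46 CPM in those of shRNA 2, with a log2 fold change of 0.66 for the mean of both shRNAs (edgeR adjusted p = 0.000658). All 6 shRNA libraries lay above the controls. MTHFS, which returns 5-formyl-tetrahydrofolate to the active pool, rose by 1.01 (edgeR adjusted p = 0.000226), and SLC46A1, the proton-coupled folate carrier, by 1.04 (edgeR adjusted p = 0.00133). The reduced folate carrier SLC19A1 fell in the same libraries, as given above. NFE2L2, the transcription factor of the oxidant response, rose. Its control mean was 63.4 ± 7.45 CPM, that of shRNA 1 was 103 ± 10.5 CPM and that of shRNA 2 was 133 ± 5.73 CPM (SD, n = 3; 0.88, edgeR adjusted p = 3.05e-05). GCLC, the catalytic subunit of the first enzyme of glutathione synthesis, rose by 0.49 (edgeR adjusted p = 0.00228). SLC7A11, the cystine importer, stood at 158, 129 and 98.1 CPM in control libraries 1 to 3, at 137, 62.6 and 82.3 CPM in those of shRNA 1 and at 258, 211 and 177 CPM in those of shRNA 2, and its difference from control did not pass with shRNA 1 (-0.45, edgeR adjusted p = 0.271) or shRNA 2 (0.74, edgeR adjusted p = 0.0661). The direct difference of shRNA 2 from shRNA 1 was 1.20 (edgeR adjusted p = 0.0177).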
